A study of Mus musculus with 12 samples.

Results

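The contrast examined was the difference between ASMT knockout and wild-type mice in the hypothalamus, averaged over sedentary and swimming animals: the mean of KO and KE minus the mean of WT and exercised WT. It took in all 12 arrays of the series, 6 from knockout and 6 from wild-type mice, with the slide on which an array was hybridized as a covariate. Within it, the probes of interest were those that differed the same way at rest and after swimming, that is with an unadjusted p of at most 0.05 and the same sign both in KO minus WT and in KE minus exercised WT. There were 70 of them among 35229 tested probes (0.199%), and 56 carried a gene symbol, each of a different gene. With opposite signs 347 probes (0.985%) passed the same thresholds. Whether 70 exceeds what unrelated differences would give was not tested.

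Total RNA of male mice was measured on 1-color Agilent arrays, with 3 mice in each of 4 groups. WT were wild-type mice without training, KO were homozygous ASMT knockout mice without training, the exercised WT were wild-type mice after swimming and KE were knockout mice after swimming. All animals were on a C57BL/6 background, the wild-type mice were littermates, and the labels give an age of 6 to 7 weeks, which the methods give as the age when training began. The knockout was made with Cas9 in zygotes, founders carried a deletion of 20 bp, and the line was backcrossed for 3 generations, so that all knockout mice carry an allele from the same founder stock in every cell.

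The knockout was directed by 1 guide, printed as the labels write it because it defines the allele that KO and KE share and WT and exercised WT lack. The capitals mark the 20 bases that follow a leading g.
Asmt guide: gCGCCTACACCAACTCCCCCC

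Asmt encodes the enzyme that performs the last step of melatonin synthesis, the methylation of N-acetylserotonin, and it is expressed mainly in the pineal gland and the retina. Melatonin acts in the hypothalamus and the adjoining pars tuberalis through its G protein-coupled receptors, and is known for its part in daily and seasonal timing. C57BL/6 mice are known as a strain with little pineal melatonin even when they are wild type. The array probe for Asmt was not detected on any of the 12 arrays, with log2 signals from 1.83 to 2.49 and a median of 1.88, so it was not tested and gave no check of the genotype labels.

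The slides set what the contrast could use. All WT arrays were on slide 1 together with KO replicates 1 and 2. KO replicate 3 was on slide 2 with every exercised WT and KE array. The first principal component, with 47.3% of the variance, separated the 2 slides completely. With the slide in the fit, KO replicate 3 carried no weight, so the difference at rest came from 2 KO against 3 WT arrays on slide 1 and the difference after swimming from 3 KE against 3 exercised WT arrays on slide 2. Both differences are therefore within-slide values from separate mice, and the averaged contrast compared 5 knockout with 6 wild-type arrays. All 12 hypothalamic marker genes were tested, at mean log2 signals from 5.67 for the transcription factor Sim1 to 16.89 for oxytocin (Oxt). Nothing in the labels or methods links replicates to separate litters, and the p-values measure the spread between these mice.

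No probe passed an adjusted p of 0.05 in the averaged contrast (0% of 35229 tested; limma with Benjamini-Hochberg adjustment), and the smallest adjusted p was 0.123. At an unadjusted p of at most 0.05 there were 1511 probes (4.29%), of which 632 were higher in knockout mice (1.79%) and 879 lower (2.5%). The methods' t-test, without the slide, likewise gave 0 probes after adjustment, with 928 at an unadjusted p of at most 0.05. The contrast was precise for most probes: the median 95% confidence half-width was 0.15 on the log2 scale, or 1.11-fold, and for 34514 probes (98.0%) the interval lay wholly inside a 2-fold difference in either direction. For 32271 probes (91.6%) it lay inside 1.5-fold.

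Probes with a difference of the same sign in both pairs of groups were fewer than those with opposite signs. The 70 probes with the same direction were 32 higher in knockout mice (0.0908%) and 38 lower (0.108%), whereas 347 probes (0.985%) had an unadjusted p of at most 0.05 in both differences with opposite signs, 237 of them (0.673%) higher in KO and lower in KE. Without any threshold, the 2 differences had the same sign in 14717 probes (41.8%). With the arrays scaled to their 75th percentile in place of quantile normalization, 67 probes differed the same way and 44 of them were higher in knockout mice. The interaction itself, the difference after swimming minus the difference at rest, gave 0 probes with an adjusted p under 0.05 by limma, and 3804 (10.8%) at an unadjusted p of at most 0.05. The 2 differences taken alone gave 1931 probes (5.48%) at rest and 3598 (10.2%) after swimming at that unadjusted threshold.

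**Figure D1:**
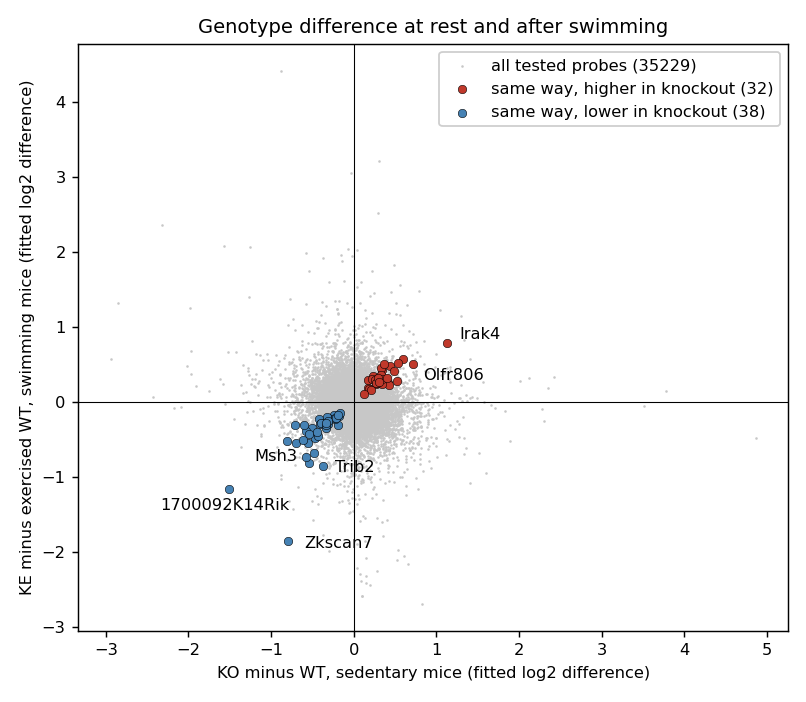
Fitted log2 difference KO minus WT in sedentary mice (horizontal axis) against KE minus exercised WT in swimming mice (vertical axis) for the 35229 tested probes in grey. The 32 probes that were higher and the 38 that were lower in knockout mice in both differences are in red and blue, and lie near the origin apart from 1700092K14Rik, Zkscan7 and Irak4.

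The 70 probes were dim and their differences small. Their averaged differences ranged in size from 0.11 to 1.34 on the log2 scale with a median of 0.33, which is 1.26-fold, and 2 of them reached 2-fold. Normexp background correction was run with an offset of 50, which by itself shrinks the log2 differences of dim probes. With it the 30 same-way genes named here had a median size of 0.15 in place of 0.42. Of these genes, 29 were smaller by over 1.5 times. The median log2 signal of the 70 probes was 5.61 against 8.43 for all tested probes. Of the 70, 62 (88.6%) lay under a log2 signal of 7 against 33.6% of all. Detection told the same: 48 of the 70 (68.6%) were detected on all 12 arrays against 91.0% of the tested probes. As the selection used the same arrays, the following is a description of it. Within both slides, the knockout arrays in the fit did not overlap the wild-type arrays, in the same direction, for 53 of the 70 and for 280 of all tested probes (0.795%). Other tested probes existed for 33 of the 56 genes. Of these 65 probes, 41 (63.1%) had the sign of the gene's same-way probe in the averaged contrast and 3 had it with an unadjusted p of at most 0.05, while the same-way probe was the brightest of its gene in 26 of the 56 genes.

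KO replicate 3 gave a reading that the selection did not use. It shares slide 2 with exercised WT and KE but did not swim, so that its distance to either group also holds whatever swimming did. Its signal was nearer to the KE mean than to the exercised WT mean for 40 of the 70 probes (57.1%), against 50.0% of all tested probes. The split was 22 of 32 for probes that were higher in knockout mice and 18 of 38 for those that were lower. Under the methods' t-test, which includes this array and ignores the slide, 19 probes differed the same way, and 3 of the 70 were among them.

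The probe with the smallest p in the whole contrast was of a long intergenic noncoding RNA with no gene symbol, one of 9 such probes among the 70. Probes of this kind are known only by position, so the sequences of the 3 with the smallest p are given in lower case (mm9, plus strand, 60 bases each); they detect RNA from chr1:87452370-87452429, chr17:27481698-27481757 and chr3:107635064-107635123.
lincRNA chr1: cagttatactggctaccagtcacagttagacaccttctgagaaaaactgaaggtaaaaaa
lincRNA chr17: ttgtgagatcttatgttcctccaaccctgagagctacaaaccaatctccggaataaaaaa
lincRNA chr3: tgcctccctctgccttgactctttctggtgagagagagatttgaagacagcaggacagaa

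The chromosome 1 probe lies near the end of an annotated noncoding transcript spanning 87419050 to 87452625 on the forward strand. The nearest probes with a gene symbol were those of Sp110, 21.2 kb away, and Sp140, 55.0 kb away, which both encode nuclear body proteins. Its log2 signal was 5.66, 5.72 and 5.72 in WT, 5.20, 5.16 and 6.12 in KO, 5.98, 5.84 and 6.10 in exercised WT and 5.59, 5.59 and 5.55 in KE (replicates 1 to 3). Within each slide the knockout arrays that entered the fit were all below the wild-type arrays, but KO replicate 3 was above every exercised WT array. The averaged difference was -0.46 ± 0.05 (SE), with an adjusted p of 0.123.

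Both other noncoding RNAs were higher in knockout mice. The chromosome 17 probe, 17.8 kb from that of 4930442P07Rik and 89.8 kb from that of the glutamate receptor gene Grm4, had log2 signals of 6.31, 6.34 and 6.33 in WT, 6.56, 6.55 and 6.36 in KO, 6.31, 6.40 and 6.48 in exercised WT and 6.76, 6.72 and 6.76 in KE. That is an averaged difference of 0.29 ± 0.04 (SE), with KO replicate 3 among the exercised WT arrays. The chromosome 3 probe had 6.42, 6.65 and 6.47 in WT, 6.83, 6.88 and 7.48 in KO, 6.95, 7.11 and 7.00 in exercised WT and 7.50, 7.49 and 7.34 in KE. Here KO replicate 3 sat with the KE arrays, and the averaged difference was 0.38 ± 0.06 (SE). Their adjusted p-values were 0.154 and 0.387.

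Among genes with a symbol that were lower in knockout mice and detected on all 12 arrays, the smallest p was that of Msh3, a DNA mismatch repair protein. Its probe, on chromosome 13 at 93082582 to 93082641, had log2 signals of 5.52, 5.44 and 5.39 in WT, 4.93, 4.88 and 5.48 in KO, 5.75, 5.43 and 5.49 in exercised WT and 4.91, 5.13 and 4.97 in KE. The 5 knockout arrays in the fit were below all 6 wild-type arrays, whereas KO replicate 3 was at the wild-type level. The difference was -0.55 at rest and -0.55 after swimming, and averaged to -0.55 ± 0.07 (SE), a 1.47-fold lower signal with an adjusted p of 0.133. The other 4 tested probes of Msh3 differed by -0.16, 0.00, -0.02 and -0.08, and the brightest of them, at a mean log2 signal of 11.26, was the one at -0.02.

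The lower set also held Plcb1, Pde4b, Palm, Slc15a3 and Btbd7. Plcb1, the phospholipase C that acts downstream of Gq-coupled receptors, had log2 signals of 5.38, 5.20 and 5.12 in WT, 4.46, 4.58 and 4.98 in KO, 4.97, 4.87 and 4.87 in exercised WT and 4.80, 4.66 and 4.32 in KE. All KE arrays were below all exercised WT arrays, and KO replicate 3 was above them. The averaged difference was -0.51 ± 0.09 (SE; adjusted p = 0.542). The other 4 Plcb1 probes also had negative differences, of -0.03 to -0.31, and 1 of them had an unadjusted p of at most 0.05 (0.0416 by limma).

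Pde4b, a phosphodiesterase that degrades cAMP, read 5.29, 5.41 and 5.15 in WT, 4.72, 4.69 and 4.95 in KO, 5.07, 5.50 and 5.55 in exercised WT and 4.99, 5.08 and 4.89 in KE. Exercised WT replicate 1 lay among the KE arrays, and KO replicate 3 sat on the knockout side. The averaged difference was -0.48 ± 0.09 (SE). Palm, which encodes the membrane-shaping protein paralemmin, read 5.55, 4.85 and 5.34 in WT, 4.75, 4.58 and 4.06 in KO, 4.95, 5.02 and 4.71 in exercised WT and 4.08, 4.33 and 4.07 in KE. All 6 knockout arrays, KO replicate 3 included, were below the wild-type arrays of their own slide, and the averaged difference was -0.66 ± 0.13 (SE). This Palm probe was detected on 9 arrays, with full detection in WT and exercised WT only, and was not the brightest of its gene. Of 2 other tested Palm probes 1 had the same sign, and 0 had it with an unadjusted p of at most 0.05 by limma. Pde4b and Palm both had an adjusted p of 0.641.

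Slc15a3, a proton-coupled transporter of histidine and small peptides in endolysosomes, kept its genotypes apart on every array. Its log2 signal was 5.53, 5.46 and 5.51 in WT, 5.21, 4.95 and 5.24 in KO, 5.36, 5.45 and 5.40 in exercised WT and 5.14, 5.20 and 5.21 in KE. The averaged difference was -0.32 ± 0.05 (SE), or 1.25-fold, with an adjusted p of 0.387. Btbd7, a BTB domain protein known from branching morphogenesis, differed by -0.43 ± 0.07 (SE), with KO arrays at 5.70, 6.02 and 6.34 and WT arrays between 6.34 and 6.42, so that KO replicate 3 was level with the wild type. The brightest other probe of Btbd7 differed by 0.01, that of Pde4b by -0.04 and that of Lipe, a gene of the higher set, by 0.06, with unadjusted p-values of 0.824, 0.447 and 0.518 by limma.

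**Figure D2:**
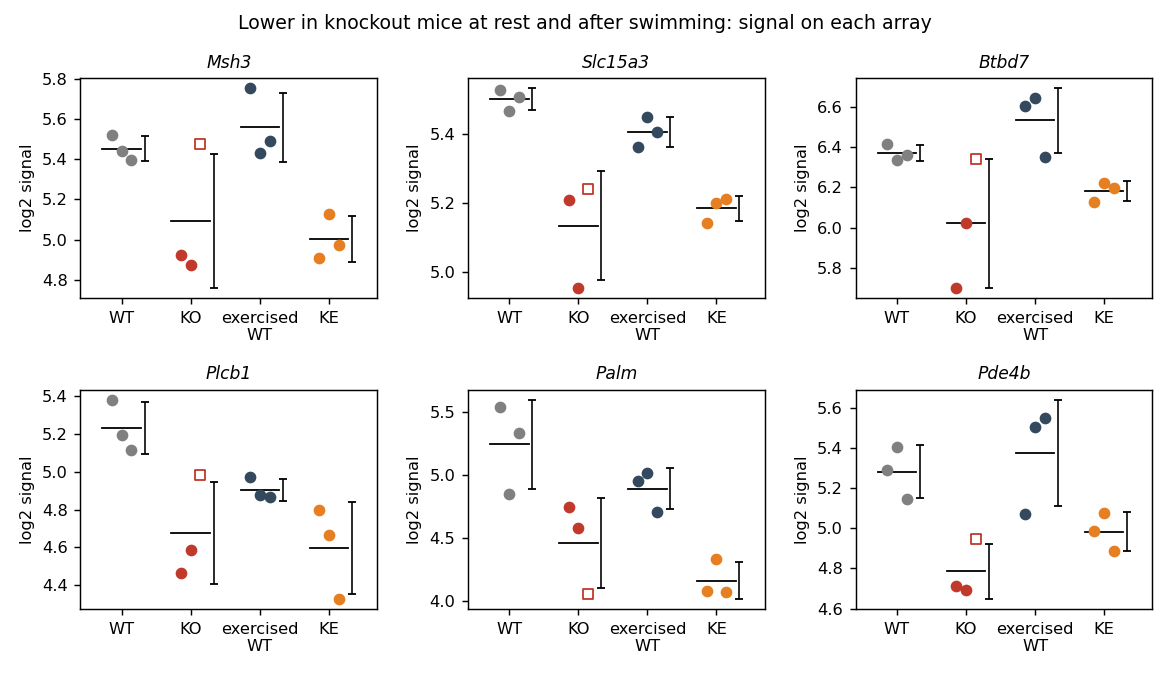
Log2 signal on each array for 6 genes that were lower in knockout mice at rest and after swimming; lines and error bars give the group mean ± SD (n = 3), and the open square is KO replicate 3, the sedentary knockout array on slide 2, which had no weight in the contrast. Msh3, Plcb1 and Btbd7 have the open square near or above the wild-type arrays, while Palm has it with the KE arrays; the vertical axes do not start at 0.

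The largest folds in the lower set belonged to probes at the edge of detection. 1700092K14Rik, an RNA without a described product, read 4.52, 5.26 and 4.83 in WT, 3.60, 3.12 and 3.42 in KO, 4.19, 4.35 and 4.13 in exercised WT and 3.29, 2.46 and 3.44 in KE, with an averaged difference of -1.34 ± 0.21 (SE; adjusted p = 0.387). It was detected on 3 WT and 2 exercised WT arrays and on no knockout array. With a floor it was 1.48-fold lower at rest and 1.18-fold lower after swimming. Each knockout array counted as whichever was larger, its own reading or the lowest detected signal it held. Each wild-type array counted as its own reading, that of the undetected exercised WT replicate 1 included. The floor is no detection limit, as undetected probes could read above it (Wdsub1 at 3.98 on KE replicate 3, with a floor of 2.79). These folds are therefore not least values. Zkscan7, a KRAB zinc finger gene, was detected on all 3 exercised WT arrays and no KE array, and was tested through exercised WT alone. With the same floor it was 2.00-fold lower after swimming, while at rest it was detected on 1 array of each group. Its signals were 3.91, 3.89 and 3.84 in WT, 3.35, 2.81 and 4.21 in KO, 5.48, 4.28 and 4.75 in exercised WT and 3.29, 2.66 and 3.02 in KE.

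Trib2, a pseudokinase that controls protein degradation, had the smallest adjusted p of any gene with a symbol in the lower set (0.123; averaged difference -0.62 ± 0.07 SE), yet its probe was detected on 3 arrays, the 3 of exercised WT. The exercised WT arrays read 4.61, 4.49 and 4.79 and the KE arrays 3.70, 3.77 and 3.85, a 1.43-fold difference with the same floor. At rest the WT arrays at 3.70, 3.91 and 3.98 and the KO arrays at 3.51, 3.46 and 3.85 were all below detection, and no fold can be given. The probe was tested through exercised WT alone, where it was high, and its p at rest compares undetected readings. Its p-values are therefore no support for a difference. A second Trib2 probe, with a mean log2 signal of 10.98, differed by -0.05 with an unadjusted p of 0.19 by limma.

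The other named genes in the lower set had averaged differences of -0.66 to -0.20 and adjusted p-values from 0.641 to 0.864. They were Slmap, a sarcolemma-associated membrane protein (-0.20), Bmp5, a bone morphogenetic protein (-0.31), Cers6, a ceramide synthase (-0.25), Mettl20, whose present symbol is Etfbkmt and which encodes a mitochondrial methyltransferase (-0.46), and the predicted gene Gm5447 (-0.66). Slmap, Bmp5 and Cers6 were detected on all 12 arrays and their genotypes did not overlap within either slide among the arrays in the fit. For all of Slmap, Bmp5, Cers6 and Mettl20, KO replicate 3, at 6.89, 6.90, 6.13 and 5.05, lay within or above the range of the exercised WT arrays. Of 2 other tested Mettl20 probes 0 had the same sign.

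Among genes of the same-way set that were higher in knockout mice, Tbata had the smallest p (0.000105 by limma; adjusted p = 0.387). Its product is named for its presence in thymus, brain and testis. The probe on chromosome 10 at 60651527 to 60651586 read 5.24, 5.44 and 5.31 in WT, 5.84, 5.87 and 5.96 in KO, 5.55, 5.70 and 5.69 in exercised WT and 6.07, 5.80 and 5.92 in KE. All 6 knockout arrays, KO replicate 3 included, were above the wild-type arrays of both slides, and the averaged difference was 0.40 ± 0.06 (SE), or 1.32-fold. One other Tbata probe was tested and had the same sign.

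C3, Irak4 and Lipe were in the higher set. C3, the central component of the complement cascade, was the brightest gene of the same-way set and read 9.72, 9.86 and 9.55 in WT, 10.00, 10.25 and 9.32 in KO, 9.38, 9.31 and 9.33 in exercised WT and 9.57, 9.66 and 9.56 in KE. KO replicate 3 was at the level of the exercised WT arrays, while all KE arrays were above all exercised WT arrays. The averaged difference was 0.33 ± 0.07 (SE; adjusted p = 0.658), and a second C3 probe differed by 0.19 ± 0.05 (SE) with an unadjusted p of 0.0044 by limma.

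Irak4, the kinase that relays signals from Toll-like and interleukin-1 receptors, had the largest difference of the higher set, 0.96 ± 0.21 (SE). It read 3.88, 3.58 and 3.63 in WT, 5.005, 4.65 and 3.66 in KO, 3.87, 4.69 and 4.25 in exercised WT and 4.46, 5.17 and 5.53 in KE. The exercised WT and KE arrays overlapped, and a second Irak4 probe differed the other way, by -0.12. The first probe was detected on 8 arrays, with full detection in KE alone. As it was tested through KE, where it was high, its p-values are no support for a difference. Lipe, the hormone-sensitive lipase that releases fatty acids from stored fat, read 4.56, 4.97 and 4.65 in WT, 5.37, 5.28 and 5.13 in KO, 4.50, 4.13 and 4.57 in exercised WT and 5.22, 4.53 and 5.19 in KE. KE replicate 2 overlapped the exercised WT arrays, and the averaged difference was 0.59 ± 0.15 (SE; adjusted p = 0.96).

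**Figure D3:**
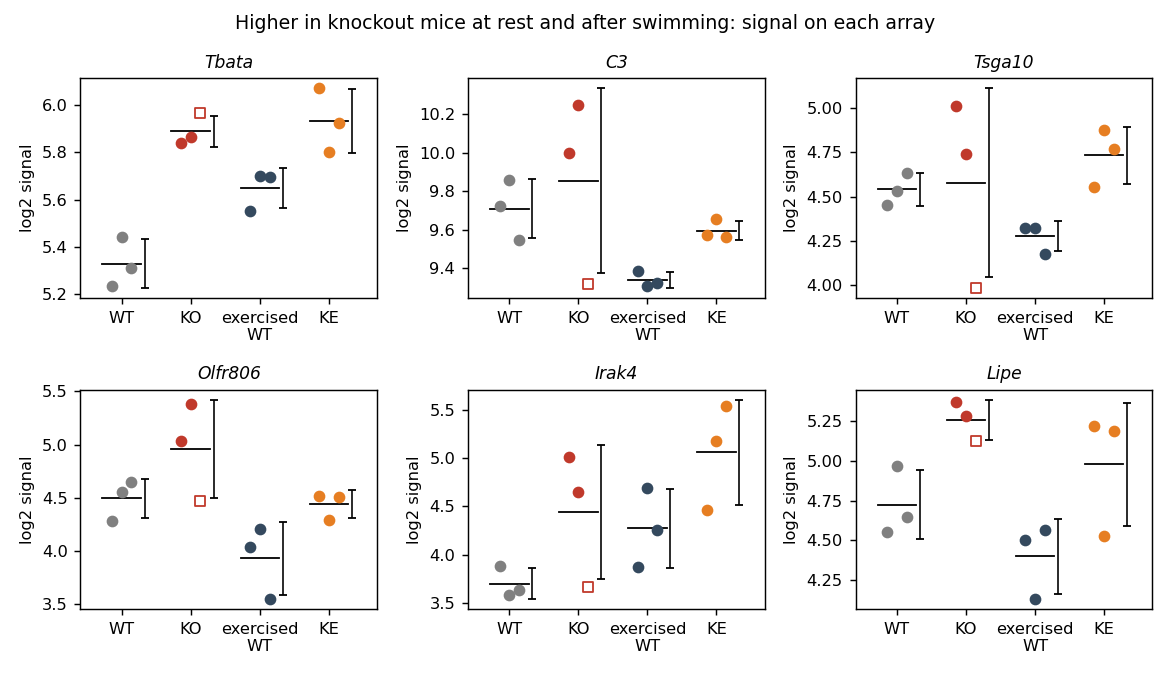
Log2 signal on each array for 6 genes that were higher in knockout mice at rest and after swimming; lines and error bars give the group mean ± SD (n = 3), and the open square is KO replicate 3, which had no weight in the contrast. Tbata has all knockout arrays above the wild-type arrays, whereas the open square lies with or below the exercised WT arrays for C3, Tsga10 and Irak4; the vertical axes do not start at 0.

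Tsga10, a sperm tail protein, differed by 0.40 ± 0.08 (SE), with signals of 4.45, 4.53 and 4.63 in WT, 5.01, 4.74 and 3.98 in KO, 4.33, 4.32 and 4.18 in exercised WT and 4.55, 4.87 and 4.77 in KE. KO replicate 3 had the lowest signal of all 12 arrays, and of the other 7 tested Tsga10 probes 3 had the same sign. The named olfactory receptor genes Olfr806 and Olfr1349 differed by 0.61 ± 0.13 (SE) and 0.33 ± 0.06 (SE). Olfr806 read 4.29, 4.55 and 4.65 in WT, 5.03, 5.38 and 4.47 in KO, 4.04, 4.21 and 3.55 in exercised WT and 4.52, 4.29 and 4.51 in KE. Its probe was detected on all arrays of KO and KE only.

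For Olfr1349 the gap between the WT and exercised WT arrays, which differ in both slide and swimming, was larger than the genotype difference. Its WT arrays read 4.70, 4.82 and 4.64 and its exercised WT arrays 5.81, 5.82 and 5.66. KO replicates 1 and 2, on slide 1, read 5.21 and 4.94. KO replicate 3, sedentary but on slide 2, read 6.53, above the KE arrays at 5.98, 6.09 and 6.12. The part of the slide in this gap was not tested. The other named genes in the higher set, which hold the smallest p-values and not all of its genes, were the testis gene Spata31d1b (0.33), the MADS box transcription factor gene Mef2b (0.43), the keratin-associated protein gene Krtap5-4 (0.18), the kidney cadherin gene Cdh16 (0.32) and AA692955, 4933406K04Rik, 4930578M01Rik and Gm14635, with no function given here (0.23 to 0.46). Adjusted p-values for these 8 genes were between 0.502 and 0.921. The 1 other tested Mef2b probe did not have the same sign.

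The margin of the same-way set was narrow. Wdsub1, just inside, had unadjusted p-values of which the larger was 0.0498, and 6530402F18Rik, just outside, had 0.0505. Both had lower signals in knockout mice, by 0.45 and 0.70 on the log2 scale.

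The lists of melatonin and serotonin, clock and hypothalamic neuropeptide genes held 0 same-way genes, and that of anterior pituitary markers held 1. Each listed gene was read from its brightest tested probe, and over all 18266 tested genes read in this way 3.47% had an unadjusted p of at most 0.05, 26 differed the same way and the median averaged difference was -0.004. That gene was Tshb, the beta subunit of thyrotropin, which the anterior pituitary and the pars tuberalis make and which melatonin is known to regulate in the pars tuberalis. It read 5.06, 5.07 and 5.03 in WT, 4.79, 4.68 and 5.02 in KO, 4.97, 5.04 and 5.11 in exercised WT and 4.80, 4.69 and 5.001 in KE, an averaged difference of -0.26 ± 0.06 (SE; adjusted p = 0.864). KE replicate 3 overlapped the exercised WT arrays and KO replicate 3 lay among them. Of the 8 anterior pituitary markers 2 were tested, Tshb and Lhb, and growth hormone, prolactin and the common alpha subunit were not detected in all mice of any group.

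The melatonin and serotonin list had 11 of 16 genes tested, and none had an unadjusted p of at most 0.05; its median was 0.004 and its differences ran from -0.18 to 0.11. The 4 with the smallest p were the serotonin receptor genes Htr2c (-0.14) and Htr7 (-0.05), the orphan melatonin-related receptor gene Gpr50 (-0.18) and the melatonin receptor gene Mtnr1a (0.11). All 21 clock genes were tested, with a median of -0.002, and 1 had an unadjusted p of at most 0.05. That was Per3, a transcriptional repressor of the clock, at 9.01, 8.94 and 8.83 in WT, 8.82, 8.75 and 8.65 in KO, 8.88, 9.08 and 8.80 in exercised WT and 8.82, 8.81 and 8.64 in KE. The difference of -0.15 ± 0.06 (SE) had an adjusted p of 0.993, and the KO arrays were all below the WT arrays, with KO replicate 1 nearly level with WT replicate 3.

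Of 27 tested hypothalamic neuropeptide genes 20 had a positive averaged difference, against 8691 of the 18266 genes, and their median was 0.05, but 1 had an unadjusted p of at most 0.05. That was Agrp, the appetite-stimulating peptide of the arcuate nucleus, at 11.77, 11.53 and 11.40 in WT, 12.26, 12.08 and 11.70 in KO, 12.01, 11.74 and 11.25 in exercised WT and 12.04, 11.87 and 11.54 in KE. The difference was 0.60 at rest and 0.15 after swimming, where the groups overlapped, and averaged to 0.37 ± 0.15 (SE; adjusted p = 0.993). Among markers of other tissue and cells the difference was positive in 1 of 10 striatum, 1 of 9 cortex and thalamus, 1 of 11 oligodendrocyte and 0 of 7 blood markers, but in 7 of 8 ependymal and 6 of 9 astrocyte markers, and their part in the neuropeptide count was not tested. By p, the next neuropeptide genes were Ghrh, the releasing hormone for growth hormone (0.21), Penk, the enkephalin precursor (-0.20), and Npy, which Agrp neurons also make (0.18).

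**Figure D4:**
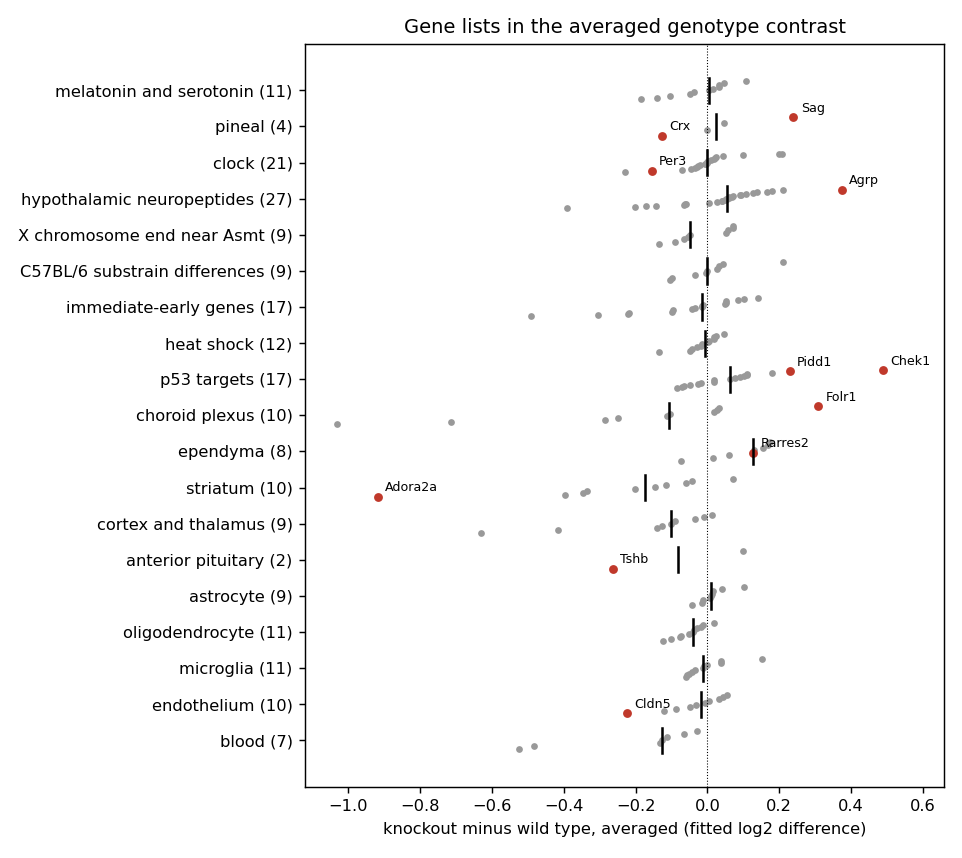
Averaged log2 difference, knockout minus wild type, of each tested gene in 19 gene lists (number of tested genes in brackets), with the list median as a black bar and genes with an unadjusted p of at most 0.05 in red and named. The medians lie between -0.17 for striatum markers and 0.13 for ependyma markers, and no gene had an adjusted p under 0.05.

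Genes near Asmt on the X chromosome and genes known to differ between C57BL/6 substrains served to look for differences in genetic background. Of the X chromosome list 9 of 14 genes were tested, with differences from -0.14 to 0.07, and of the substrain list 9 of 12, with differences from -0.10 to 0.21. No gene of either list had an unadjusted p of at most 0.05. Prps2 (-0.07) had the smallest p in the X chromosome list.

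Stress and activity genes seldom had the same sign in both differences, which 41.0% of all 18266 genes had. None of the 12 heat shock genes had the same sign at rest and after swimming, with medians of 0.12 and -0.13, and 3 of 17 immediate-early genes did, with medians of 0.15 and -0.15. No gene of these 2 lists had an unadjusted p of at most 0.05 in the averaged contrast. Of 17 tested p53 targets 2 did, Pidd1 (0.23) and the checkpoint kinase gene Chek1 (0.49), and the latter read 4.15, 3.59 and 3.84 in WT, 4.99, 5.27 and 4.59 in KO, 4.58, 4.27 and 4.70 in exercised WT and 4.47, 3.83 and 4.37 in KE. The fitted Chek1 difference was 1.27 at rest and -0.29 after swimming. In the lower group of each difference the probe was detected on only 1 WT and 2 KE arrays, so that neither size nor sign is firm. The 9 genes that the study chose for qRT-PCR, and so not independent evidence, had 3 at that threshold: Chek1, Pidd1 and Eps8l1. The paper reports lower Eps8l1 in knockout mice by qRT-PCR, while Chek1 and Pidd1 were not verified there. Eps8l1, an adaptor of receptor tyrosine kinase signalling, differed by -2.01 at rest and 0.49 after swimming. Its probe was not detected on all 12 arrays, and its averaged difference ran from -0.89 to -0.22 over alternative settings.

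Markers of neighboring tissue and of cell types were checked in the same way, since dissection and cell content cannot be told apart from RNA per cell in bulk tissue. Striatum markers had a median of -0.17, and 1 of 10 had an unadjusted p of at most 0.05, the adenosine receptor gene Adora2a (-0.92 ± 0.40 SE). Its signal was 5.39, 5.95 and 6.56 in WT, 5.19, 5.73 and 5.51 in KO, 5.64, 6.99 and 8.07 in exercised WT and 5.69, 5.39 and 5.63 in KE, and the mean log2 level of the 10 markers was 10.05 to 10.06 in KE and 10.15 to 11.02 in exercised WT. Choroid plexus markers had a median of -0.11, with Folr1 (0.31) at that threshold among 10 tested, and their mean level overlapped between KO and WT but was 7.31 to 7.49 in KE against 7.65 to 8.14 in exercised WT. The part of striatum and choroid plexus RNA in the contrast was not tested.

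Other marker lists held few genes at an unadjusted p of at most 0.05. Among endothelial markers it was 1 of 10, the tight junction gene Cldn5 (-0.22), among ependymal markers 1 of 8, Rarres2 (0.13), and among pineal markers 2 of 4 tested, the photoreceptor genes Sag (0.24) and Crx (-0.13). The tested markers of cortex and thalamus (9), astrocytes (9), oligodendrocytes (11), microglia (11) and blood (7) had none, with medians from -0.13 for blood to 0.01 for astrocytes.

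The screening criterion of the methods, a fold of 2 or more together with an unadjusted p up to 0.05, was met by 20 probes in the averaged contrast (0.0568%), 11 higher (0.0312%) and 9 lower (0.0255%) in knockout mice. Of these 20, 2 belonged to the same-way set, 1700092K14Rik and Zkscan7. The others did not have an unadjusted p of at most 0.05 with the same sign in both differences. The following genes were picked after their values were seen, because 5 of them are known from airway and glandular epithelia and share a pattern over arrays.

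Bpifa1, a secreted antimicrobial protein of the airways, had an averaged difference of 1.96 ± 0.22 (SE; adjusted p = 0.123), one of the smallest adjusted p-values of the contrast. It read 6.88, 7.19 and 7.01 in WT, 11.42, 10.20 and 7.90 in KO, 7.72, 7.85 and 8.01 in exercised WT and 8.49, 7.74 and 7.78 in KE. KO replicates 1 and 2 stood far above every other array, and the difference was 3.78 at rest and 0.14 after swimming. At rest alone, Bpifa1 and both tested probes of its relative Bpifb1 were the 3 probes with an adjusted p under 0.05 in KO minus WT by limma (0.00852%).

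Wfdc2, a secreted protease inhibitor, read 5.02, 5.38 and 5.79 in WT, 10.74, 9.80 and 5.95 in KO, 6.13, 6.05 and 7.43 in exercised WT and 8.87, 4.28 and 5.002 in KE. Cyp2f2, a cytochrome P450 of airway club cells, read 5.47, 6.13 and 6.42 in WT, 9.74, 9.29 and 4.68 in KO, 6.17, 5.99 and 8.28 in exercised WT and 9.24, 5.43 and 5.60 in KE. Both were high on KO replicates 1 and 2 and KE replicate 1, raised on exercised WT replicate 3, and low on KO replicate 3. Scgb3a1, a secretoglobin, and Tspan1, a tetraspanin, also had their highest signals on KO replicates 1 and 2, at 8.003 and 7.62 and at 5.93 and 5.39. The part of such epithelial RNA in the genotype difference was not tested, and KO replicates 1 and 2 are the only KO arrays with weight in the fit.

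Oca2, a melanosome transporter, showed the other one-sided pattern. It was detected on 3 arrays, read 5.22, 6.32 and 5.95 in KE, and ranged from 1.95 to 4.19 over the other 9 arrays, where it was not detected. The probe was tested through KE alone. With the lowest detected signal of each exercised WT array as a floor, KE was 4.42-fold higher, which is not a least value. At rest no fold can be given.

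**Figure D5:**
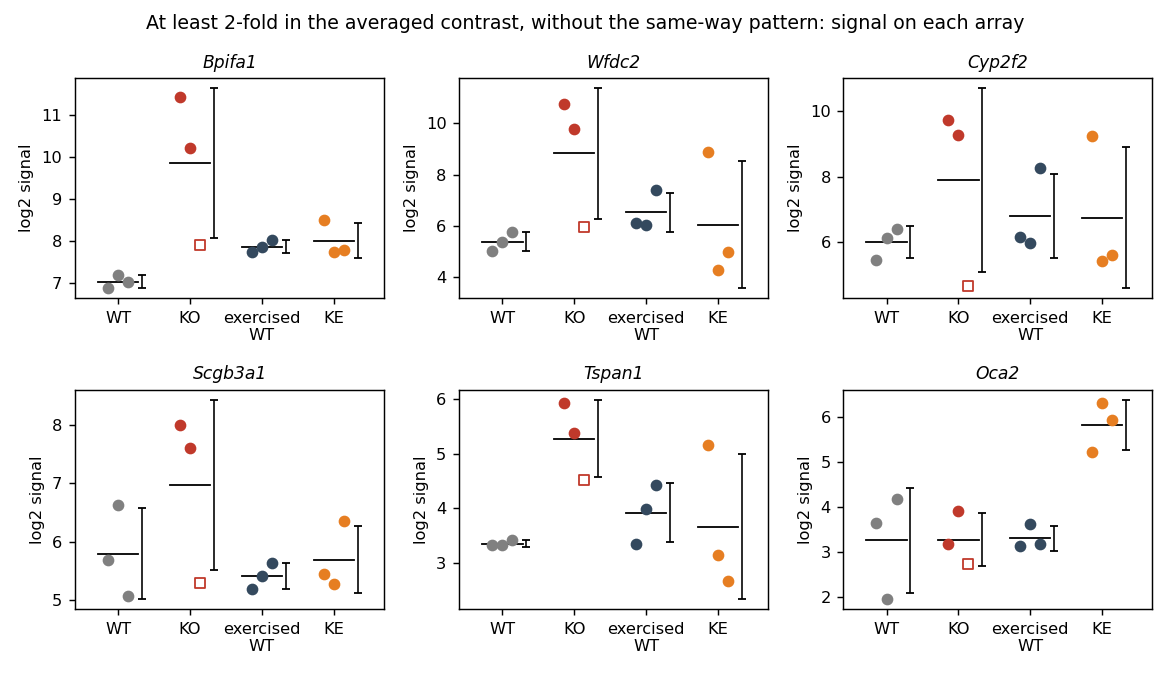
Log2 signal on each array for 6 genes with at least a 2-fold averaged difference that did not differ the same way in both pairs of groups; lines and error bars give the group mean ± SD (n = 3), and the open square is KO replicate 3. Bpifa1, Wfdc2, Cyp2f2, Scgb3a1 and Tspan1 are highest on KO replicates 1 and 2, and Oca2 is high in KE alone; the vertical axes do not start at 0.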

How the data were processed

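Groups and replicate numbers came from the sample labels. Per the file headers and the methods, the authors scanned 1-color arrays, and Agilent Feature Extraction 10.7.1.1 gave background-subtracted intensity values per spot. The authors then deposited a table of log2 values, quantile-normalized over the 12 arrays, with the raw intensity and a detection flag for each of 56605 probes. Those log2 values were analysed here. The number of spots well above background was 36543 to 40276 on an array, and 0 were saturated. The 3 arrays per group limit the precision. The authors' 4 tables of their own comparisons (fold changes and p-values) and the 72 columns of per-sample values in them were not used.

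Probes flagged as detected on all 3 arrays of at least 1 group were tested (35229). A probe could thus enter through the group where it was high. Such probes included Trib2, Zkscan7, Gm5447, Wdsub1 and 6530402F18Rik (exercised WT), 1700092K14Rik (WT), and Irak4, Spata31d1b and Oca2 (KE). They also included 4933406K04Rik and Tspan1 (KO), Olfr806 (KO and KE) and Palm (WT and exercised WT). The p-values of such probes are no support for a difference. The fit had a mean per group and a slide term (limma 3.58.1, R 4.3.3), leaving 7 residual degrees of freedom, with Benjamini-Hochberg adjustment over all tested probes; the procedure was tested on simulated data. Differences are fitted log2 values, knockout minus wild type. The genes named are Asmt, the 14 higher and 14 lower same-way genes with the smallest p in the averaged contrast, the 3 per direction with the largest fold, same-way list members and up to 4 members of a list with the smallest p. Members, lists and rules were chosen with earlier results of these data known. Probe positions are mm9, from the array annotation; of 56 symbols, 53 matched RefSeq names of GRCm38.p6. Alternatives changed 1 choice at a time (25 settings).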

Additional observations from a re-analysis of the deposited data

How the results depend on the processing

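Limits: the rest and swimming differences each rest on 5 or 6 arrays of 1 slide, most same-way probes are dim, and undetected signals have no fold. All 30 named genes kept their sign and stayed above an adjusted p of 0.05 in all 739 values under 25 alternatives. As the same arrays had chosen these genes for the same sign in both differences, the kept sign is no support for the genes. Their sizes did not hold equally. With normexp and its offset of 50, 29 genes were smaller by over 1.5 times (1700092K14Rik -0.25, Msh3 -0.25, Trib2 -0.15). With probes averaged per gene 13 were smaller by that much (Msh3 -0.16, Tsga10 0.045). Without the slide term or under the methods' t-test 3 were smaller and 1 was larger by that much. Of 17 further genes followed through these settings, Crx reversed to 0.019 without the slide term and to 0.019 under the methods' t-test. Bpifa1 passed the adjusted threshold in 2 settings (1.68 with normexp, 2.26 without KO replicate 2). The remaining genes given with values were not followed in this way.

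Probes with an adjusted p under 0.05 in the averaged contrast (0) became 3 with normexp background correction and 22 without a filter on dim probes. Those at the screening criterion (20) became 3 with normexp, 250 unfiltered, 4 when detection on all 12 arrays was required, 13 with probes averaged per gene and 8 under the methods' t-test. Same-way probes (70) became 109 unfiltered, 33 with a trended and robust prior, 34 per gene and 19 under the t-test. Interaction probes (0) became 3 with normexp, 21 unfiltered and 2 with the trended prior. The part of the offset of 50 in the normexp counts was not tested. Scaling by the 75th percentile gave 67 same-way probes, 44 of them higher, against 32 of 70, with 41 shared. Without the slide term there were 51, of which 26 were shared. The cause was not tested.

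Leaving out 1 array at a time gave 0 to 2 probes with an adjusted p under 0.05, 18 to 60 at the criterion, 70 to 138 same-way and 0 to 14 for the interaction. Without KO replicate 1 these were 2, 37, 87 and 14, and without KO replicate 2 they were 1, 60, 138 and 2. Without WT replicate 1 or 2 there were 110 and 107 same-way probes, and without WT replicate 1 or KE replicate 3 there was 1 interaction probe each. Leaving out KO replicate 3 changed no count.

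The replicate numbers only name the mice: deviations of same-numbered arrays correlated between -0.19 and 0.24. With the replicate number as a block there were 0 probes with an adjusted p under 0.05, 21 at the criterion, 98 same-way (53 shared with the 70) and 0 for the interaction.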
